A study of Mus musculus with 28 samples.

Results

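The expression of 10 liver sinusoidal endothelial genes was followed in the livers of mice treated with 2 FXR agonists: *Stab1*, *Stab2*, *Lyve1*, *Fcgr2b*, *Clec4g*, *Eng*, *Kdr*, *Gpr182*, *Pecam1*, and *Oit3*. The genes were chosen by symbol as scavenger and identity genes of these cells and matched to the Ensembl identifiers of the counts table, in which all 10 were found among 21935 genes. All 10 also passed the filter on low counts, among 12580 genes tested. The mice were males of the strain B6.V-Lepob/JRj, which lacks leptin, were 5 weeks old at delivery, and ate the AMLN diet, which is high in cholesterol, fat, and fructose, for 14 weeks before treatment and during it. A daily oral dose was given for 2 weeks, and 10 mice received vehicle, 9 received OCA at 30 mg/kg, and 9 received INT-787 at 30 mg/kg. OCA is obeticholic acid, a semisynthetic bile acid, and INT-787 is an FXR agonist known by its code. Genotype and diet were shared by all 3 groups, so no lean or chow-fed liver was available for comparison. Polyadenylated RNA of whole liver was sequenced, and each library came from 1 mouse.

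Liver sinusoidal endothelial cells line the capillaries between the plates of hepatocytes. They have open pores and no continuous basement membrane, and they clear waste molecules from the blood through scavenger receptors such as the stabilins and the mannose receptor. In fatty and fibrotic livers they can lose these features and take on those of continuous capillaries, a change known as capillarization.

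The 10 genes lie on 8 chromosomes of GRCm38. The stabilins *Stab1* (ENSMUSG00000042286, chr14:31139013-31168641) and *Stab2* (ENSMUSG00000035459, chr10:86841198-87008025), the hyaluronan receptor *Lyve1* (ENSMUSG00000030787, chr7:110850607-110863239), the Fc receptor *Fcgr2b* (ENSMUSG00000026656, chr1:170958617-170976547), and the lectin *Clec4g* (ENSMUSG00000074491, chr8:3707064-3720651) are on the minus strand. So are *Kdr* (ENSMUSG00000062960, chr5:75932827-75978458), *Gpr182* (ENSMUSG00000058396, chr10:127747276-127751732), *Pecam1* (ENSMUSG00000020717, chr11:106654217-106750628), and *Oit3* (ENSMUSG00000009654, chr10:59422958-59441778). *Eng* (ENSMUSG00000026814, chr2:32646595-32682669) is on the plus strand. RefSeq promoter windows (GRCm38.p6) were matched for 6 of the 10 genes, *Stab1*, *Stab2*, *Eng*, *Clec4g*, *Kdr*, and *Fcgr2b*.

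The 250 bases before the start site were searched on both strands for short motifs, and a match is a description of the letters only. The core motif of ETS factors, which are active in all endothelium, was searched as GGAAGT. It was present for *Eng*, *Kdr*, and *Fcgr2b*, and in 19.7% of all 32851 promoters of the same length. The half-site of nuclear receptors such as FXR, AGGTCA, was present for *Stab2* and *Fcgr2b*, and in 14% of all promoters. Neither the GATA motif AGATAA (9.99% of all promoters) nor 2 half-sites facing each other with 1 base between them (0.00609% of all promoters) was found in any of the 6 windows. The windows of *Eng* and *Kdr* are shown because both carry the ETS core, lie before the annotated exons except for 3 bases of *Kdr*, and belong to the receptors of the BMP9 and VEGF pathways described below. Capitals mark the ETS core, which in both reads in reverse (ACTTCC) and starts 53 bases before the start of *Eng* and 217 bases before that of *Kdr*.
Eng, chr2:32646345-32646594, plus strand: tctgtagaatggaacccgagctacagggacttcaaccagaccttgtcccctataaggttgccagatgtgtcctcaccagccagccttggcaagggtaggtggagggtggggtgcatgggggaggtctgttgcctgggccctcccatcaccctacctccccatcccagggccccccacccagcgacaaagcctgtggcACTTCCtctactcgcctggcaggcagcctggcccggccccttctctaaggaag
Kdr, chr5:75978456-75978705, minus strand: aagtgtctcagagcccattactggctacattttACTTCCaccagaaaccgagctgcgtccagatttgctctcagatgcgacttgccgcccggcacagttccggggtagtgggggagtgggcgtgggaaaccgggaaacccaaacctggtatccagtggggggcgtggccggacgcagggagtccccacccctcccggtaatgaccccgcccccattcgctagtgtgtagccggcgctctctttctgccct

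Total counts per mouse ranged from 1009593 to 22421506. Vehicle replicate 6 had the fewest counts by far, and the 10 genes had only 21 (*Oit3*) to 150 (*Eng*) counts each in that mouse. In vehicle replicate 5, 130 genes that mostly overlap another gene on the opposite strand and are hardly expressed otherwise summed to 229.9 CPM (counts divided by the library size and scaled up), against 11.8 to 18.2 CPM in the other mice. Between 61 and 155 exonic bases of *Stab1*, *Stab2*, *Eng*, *Clec4g*, *Gpr182*, and *Fcgr2b* overlap a gene on the opposite strand, and none of the other 4 genes. INT-787 replicate 8 was the lowest of the 9 INT-787 mice for 10 of 10 genes and is described after the comparisons. The comparisons were also computed without these libraries.

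All values below are CPM scaled by the TMM method, as mean ± SD over the mice of a group, and all fold changes, 95% intervals, and p-values come from edgeR (quasi-likelihood test), the p-values being adjusted by Benjamini and Hochberg's method over the 12580 genes tested. A gene was called at an adjusted p of at most 0.05, and "rose" and "fell" are used only for called genes. Both drugs were compared with the same vehicle mice.

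In vehicle-treated mice all 10 genes were well expressed. Per kilobase of exon, the level was highest for *Eng* (32.1 ± 4.81 CPM per kb), followed by *Clec4g* (12.3 ± 2.26 CPM per kb). Each of these exceeded the next gene in 10 of 10 mice and by more than the sum of both SDs. The other 8 genes ranged without such a gap from *Fcgr2b* (8.25 CPM per kb) through *Gpr182* (8.12), *Oit3* (8.02), *Lyve1* (6.78), *Stab2* (6.19), *Pecam1* (5.86), and *Stab1* (5.25) to *Kdr* (4.33 CPM per kb), so neighbours in this order did not differ beyond their spread. The spread between vehicle mice was narrowest for *Fcgr2b*, with an SD of 12.5% of the mean, and widest for *Kdr*, with 30.7%.

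INT-787 lowered 2 of the 10 sinusoidal genes compared with vehicle, the inhibitory Fc receptor *Fcgr2b* and the junction protein *Pecam1*. By comparison, 19.6% of all tested genes were called with INT-787, and 9.48% were called lower. The number of sinusoidal genes called depended on the tool and the scaling. DESeq2 called 4 of 10. It called 2685 genes in all, against 2469 by edgeR, which is 15.5% of the 17320 genes with any count. That set is wider than the 12580 genes kept by the filter, so this share cannot be set beside those of edgeR. Upper-quartile scaling in edgeR gave 5 of 10 against 20.3% of the 12580. Of the 10 genes, 9 had a fold change below 0, with a median log2 fold change of -0.30, whereas 50.2% of all tested genes were below 0 with a median of -0.001. With OCA, 0 of 10 genes were called by edgeR (4 at an unadjusted p under 0.05; DESeq2 also called 0), against 6.6% of all tested genes in either direction and 2.45% lower. All 10 fold changes with OCA were below 0, with a median of -0.22 (all genes 0.018). In whole liver, fewer endothelial cells and less RNA per endothelial cell cannot be told apart.

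**Figure D1:**
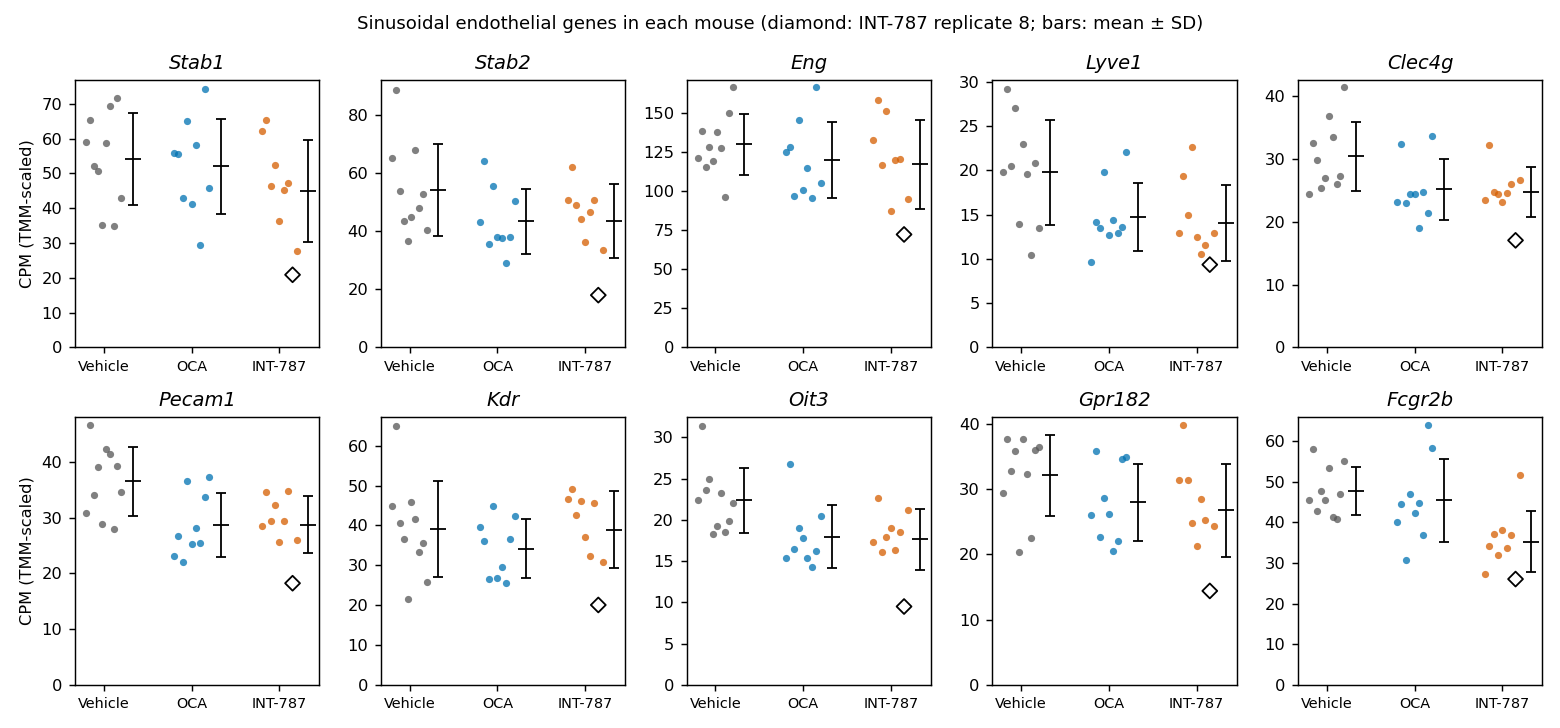
CPM of the 10 sinusoidal endothelial genes (vertical axes, from 0) in each of 10 vehicle, 9 OCA, and 9 INT-787 mice, with the mean ± SD beside each group. The open diamond is INT-787 replicate 8, the lowest INT-787 mouse in every panel. For *Fcgr2b*, 8 of 9 INT-787 mice lie below the lowest vehicle mouse (40.9 CPM).

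Among the clearance receptors, *Fcgr2b* showed the clearest difference. Its product, an Fc receptor with an inhibitory signal, takes up small immune complexes in sinusoidal endothelium and is also made by B cells and macrophages. *Fcgr2b* ranged from 40.9 to 58.2 CPM with vehicle (median 46.3), from 30.7 to 64.0 CPM with OCA (median 44.4), and from 26.04 to 51.8 CPM with INT-787 (median 34.3). All but 1 of the INT-787 mice, replicate 9, were below every vehicle mouse, whereas OCA mice covered the whole vehicle range. *Fcgr2b* fell with INT-787 (47.7 ± 5.96 to 35.2 ± 7.50 CPM; log2 fold change -0.43, 95% interval -0.68 to -0.18, adjusted p = 0.011). The call held in 12 of 12 other settings and in 28 of 28 fits without 1 mouse, the adjusted p ranging from 0.0011 to 0.044. With OCA the log2 fold change was -0.07 (-0.31 to 0.18, adjusted p = 0.85). Compared directly at the same dose, the log2 difference of INT-787 from OCA was -0.36 (95% interval -0.61 to -0.12), which did not pass the adjustment (adjusted p = 0.074). This direct comparison did pass without OCA replicate 3 or without INT-787 replicate 9. With all mice it passed in 1 of 12 other settings, a factor for sets of neighbouring sample numbers. Mouse *Fcgr2b* and *Fcgr3* are near-identical over part of their coding sequence, and how reads shared by both were counted is not given in the sources used here.

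*Stab1* and *Stab2* encode the stabilins, receptors that take up hyaluronan, modified lipoproteins, and matrix fragments. *Stab2* ranged from 36.6 to 88.6 CPM with vehicle (median 50.4), from 29.1 to 64.3 CPM with OCA (median 37.9), and from 18.01 to 62.1 CPM with INT-787 (median 46.8). The groups overlapped widely, and neither INT-787 (log2 fold change -0.33, 95% interval -0.69 to 0.03, adjusted p = 0.20) nor OCA (-0.33, -0.69 to 0.03, adjusted p = 0.33) gave a call. *Stab1* ranged from 34.9 to 71.7 CPM with vehicle (median 55.5), 29.5 to 74.2 CPM with OCA (median 55.7), and 20.9 to 65.3 CPM with INT-787 (median 46.4). Its log2 fold change was -0.27 with INT-787 (-0.63 to 0.10, adjusted p = 0.33) and -0.05 with OCA (-0.42 to 0.32, adjusted p = 0.94). The intervals leave room for a fall of 35.6% in *Stab1* with INT-787 but for a rise of only 7.4%.

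*Lyve1*, a hyaluronan receptor of sinusoidal and lymphatic endothelium, had the most negative fold change of the 10 genes with both drugs. It ranged from 10.4 to 29.2 CPM with vehicle (median 20.2), from 9.61 to 22.03 CPM with OCA (median 13.6), and from 9.36 to 22.6 CPM with INT-787 (median 12.9). In both drug groups 8 of 9 mice were below the vehicle median, yet vehicle replicates differed so much among themselves that the ranges overlapped. The log2 fold change was -0.47 with INT-787 (95% interval -0.84 to -0.11, adjusted p = 0.057, called in 5 of 12 other settings) and -0.41 with OCA (-0.77 to -0.05, adjusted p = 0.20, called in 0 of 12). *Clec4g*, a lectin of sinusoidal endothelium that binds glycans, ranged from 24.4 to 41.4 CPM with vehicle, 19.1 to 33.6 CPM with OCA, and 17.03 to 32.2 CPM with INT-787. Its medians were 28.5, 24.4, and 24.5 CPM, so both drug groups lay below vehicle by about the same amount. The log2 fold change was -0.28 with INT-787 (-0.52 to -0.05, adjusted p = 0.078) and -0.26 with OCA (-0.49 to -0.03, adjusted p = 0.21). *Clec4g* was called with INT-787 in 3 of 12 other settings and in 1 of 28 fits without 1 mouse, and with OCA in 1 of 12 and in 0 of 28.

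*Oit3*, a secreted protein with a zona pellucida domain and a marker of sinusoidal endothelium in mouse liver, had fold changes of similar size with both drugs. It ranged from 18.3 to 31.4 CPM with vehicle (median 22.2), from 14.3 to 26.8 CPM with OCA (median 16.4), and from 9.49 to 22.6 CPM with INT-787 (median 17.9). With OCA 6 of 9 mice and with INT-787 5 of 9 mice were below the lowest vehicle mouse. The log2 fold change was -0.35 with INT-787 (95% interval -0.61 to -0.09, adjusted p = 0.052) and -0.32 with OCA (-0.59 to -0.06, adjusted p = 0.14). *Oit3* was called with INT-787 in 8 of 12 other settings and in 5 of 28 fits without 1 mouse, and with OCA in 3 of 12 and in 1 of 28.

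*Pecam1* encodes CD31, an adhesion protein at the contacts of all endothelial cells. It ranged from 27.9 to 46.6 CPM with vehicle (median 36.8), from 21.96 to 37.2 CPM with OCA (median 26.7), and from 18.2 to 34.8 CPM with INT-787 (median 29.4). All 9 INT-787 mice and 8 of 9 OCA mice were below the vehicle median. *Pecam1* fell with INT-787 (log2 fold change -0.33, 95% interval -0.58 to -0.09, adjusted p = 0.047), and with OCA the log2 fold change was -0.34 (-0.58 to -0.09, adjusted p = 0.094). Both estimates were of like size, and the direct comparison gave 0.004 (-0.24 to 0.25, adjusted p = 0.99). The *Pecam1* call was weak, holding in 8 of 12 other settings and in 11 of 28 fits without 1 mouse, and without INT-787 replicate 8 the log2 fold change was -0.27 (adjusted p = 0.098).

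No call was made for the receptors of vascular signals. *Kdr* encodes VEGFR2, the main signalling receptor for VEGF-A. It ranged from 21.5 to 65.0 CPM with vehicle (median 38.7), from 25.5 to 44.8 CPM with OCA (median 36.2), and from 20.04 to 49.2 CPM with INT-787 (median 42.6). The INT-787 mice lay on both sides of the vehicle median, with a log2 fold change of 0.004 (95% interval -0.33 to 0.34, adjusted p = 0.99), and OCA gave -0.19 (-0.52 to 0.15, adjusted p = 0.63). *Eng*, or endoglin, presents BMP9 and BMP10 to the receptor ALK1. Its range was 96.3 to 166.2 CPM with vehicle (median 127.9), 95.2 to 166.3 CPM with OCA (median 114.8), and 72.2 to 158.2 CPM with INT-787 (median 120.0). The log2 fold change of *Eng* was -0.15 with INT-787 (-0.41 to 0.11, adjusted p = 0.45) and -0.12 with OCA (-0.38 to 0.14, adjusted p = 0.71). *Gpr182*, an atypical chemokine receptor of sinusoidal and lymphatic endothelium, ranged from 20.4 to 37.7 CPM with vehicle (median 34.3), 20.5 to 35.8 CPM with OCA (median 26.2), and 14.4 to 39.7 CPM with INT-787 (median 25.2). No call was made for *Gpr182*, with a log2 fold change of -0.25 for INT-787 (-0.55 to 0.05, adjusted p = 0.24) and -0.19 for OCA (-0.49 to 0.11, adjusted p = 0.55).

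Between the drugs, at 30 mg/kg of each, 0 of the 10 genes were called by edgeR (1 at an unadjusted p under 0.05, *Fcgr2b*; DESeq2 also called 0). Among all tested genes 5.38% were called between the drugs, and 3.19% were called with INT-787 below OCA. The median log2 difference of the 10 genes was -0.03. For *Stab2* the difference was 0.00 (95% interval -0.37 to 0.36) and for *Kdr* 0.19 (-0.15 to 0.53). Over the 10 genes the 95% intervals reached from -0.61 at the lowest to 0.53 at the highest, which is the size of difference between the drugs that these mice leave possible for single genes.

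**Figure D2:**
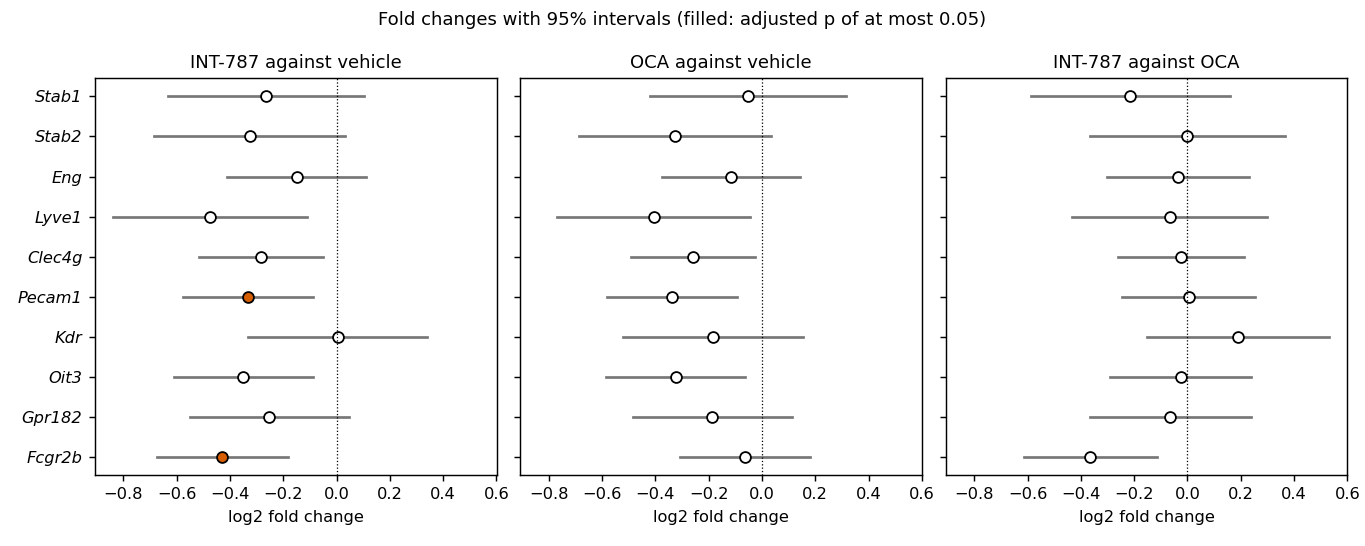
Log2 fold changes (points) with 95% intervals (lines) of the 10 genes for each drug against vehicle and for INT-787 against OCA, with filled points at an adjusted p of at most 0.05. Filled points are *Pecam1* and *Fcgr2b* with INT-787, and *Fcgr2b* is the gene farthest below 0 between the drugs (-0.36).

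INT-787 replicate 8 stood below the other INT-787 mice for every sinusoidal gene. It was known to be low for endothelial genes when the 10 genes were chosen, so its values are a description. *Stab2* was at 18.01 CPM in this mouse and between 33.5 and 62.1 CPM in the other 8, and *Kdr* was at 20.04 CPM against 30.9 to 49.2 CPM. The log2 ratio to the median of the other 8 mice ranged from -0.45 for *Fcgr2b* to -1.41 for *Stab2*, with a median of -0.81. Over all tested genes the median ratio in this mouse was 0.005, and it was the lowest of 9 for 19.8% of them. Genes of all endothelium moved alike, with 16 of 20 lowest in this mouse (median log2 ratio -0.77), as did 9 of 16 other sinusoidal genes (-0.47). Hepatocyte genes were near the other mice (-0.006), whereas Kupffer cell genes (0.31) and lymphocyte genes (1.18) were higher and red blood cell genes lower (-1.96). Stellate cell genes were also lower, with a median log2 ratio of -0.40 and 4 of 10 lowest in this mouse. The 3 tested lymphatic genes had a median of -1.66, with 2 of 3 lowest. Of these, *Prox1* is also made by hepatocytes and *Reln* is also among the stellate cell genes. The part of these cell types in the low values was not tested.

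The results with INT-787 depended in part on this mouse. Without it the median log2 fold change of the 10 genes was -0.23 in place of -0.30, *Fcgr2b* still fell (-0.38, adjusted p = 0.025), and the remaining 9 genes were not called. Of all tested genes 18.1% were called in this fit. *Lyve1* then had a log2 fold change of -0.42 (adjusted p = 0.11) and *Oit3* of -0.27 (adjusted p = 0.099). The values of *Eng* and *Stab1*, which were not called with all mice, went from -0.15 to -0.08 and from -0.27 to -0.17. When vehicle replicates 5 and 6 were left out as well, the median was -0.26 and again 1 gene was called (15.75% of all tested genes). Without vehicle replicate 5 alone, 4 genes were called with INT-787 (18.2% of all tested genes), and without vehicle replicate 6 alone 1 was called (19.3% of all). Between the drugs, leaving out INT-787 replicate 8 turned the median log2 difference of the 10 genes from -0.03 to 0.03, and 3 genes in place of 7 were below 0. Among the other genes named below, the calls of *Cdh5*, *Ramp2*, *Edn1*, *Esm1*, *Vegfa*, and *Dab2* with INT-787 were lost without this mouse, with adjusted p between 0.06 and 0.087. Their log2 fold changes kept their signs, going from -0.34 to -0.31 for *Cdh5*, from -0.44 to -0.41 for *Ramp2*, from -0.79 to -0.78 for *Edn1*, from -0.52 to -0.43 for *Esm1*, from 0.40 to 0.28 for *Vegfa*, and from -0.49 to -0.42 for *Dab2*.

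**Figure D3:**
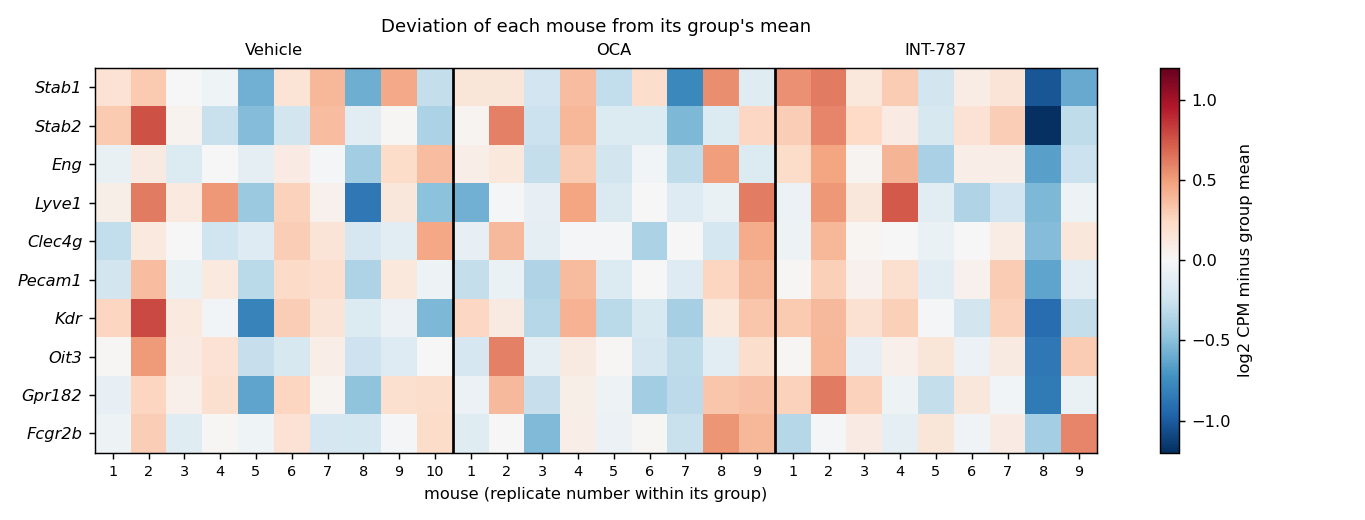
Log2 CPM of each gene (rows) in each mouse (columns, by group and replicate) minus the mean of its group, blue below and red above. INT-787 replicate 8 is blue in all 10 rows, with *Stab2* the farthest below, and vehicle replicate 2 is red in all 10.

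The 10 genes varied together from mouse to mouse within the groups. After group means were removed, Pearson's r over the 28 mice ranged from 0.19 to 0.85 across the 45 pairs of genes, with a median of 0.56 (Spearman's rho 0.096 to 0.79, median 0.53). A permutation p adjusted over the 45 pairs was at most 0.05 for 37 pairs by r and for 31 by rho. These counts include INT-787 replicate 8, which was known to be low for endothelial genes when the 10 genes were chosen. Over the other 27 mice the median r was 0.47, the lowest was 0.02, and the adjusted p was at most 0.05 for 25 pairs by r and for 24 by rho. *Stab2* and *Kdr* were the closest pair (r = 0.85, rho = 0.79, two-sided permutation p = 1e-05 for both, the smallest that 100000 permutations can give, adjusted p = 7.5e-05 and 0.00015). Without INT-787 replicate 8 their r was 0.80 (adjusted permutation p = 0.000225 by r and 0.0009 by rho). *Fcgr2b* followed the others least, with r = 0.44 to the mean of the other 9 genes, and with *Stab1* r was 0.19 (rho = 0.17, permutation p = 0.34 and 0.40, adjusted p = 0.34 and 0.42). Each pair was also computed without 2 mice, chosen for that pair as those farthest from the median of its first gene. The median r over the pairs was then 0.46 and the lowest was -0.06. Computed in this way, r was under 0.1 for 4 pairs, those of *Fcgr2b* with *Stab1*, *Stab2*, and *Eng* and that of *Stab1* with *Clec4g*. Sums over the 10 genes ran from 358.7 to 592.7 CPM with vehicle (median 470.3), from 315.5 to 498.5 CPM with OCA (median 401.0), and from 225.6 to 517.6 CPM with INT-787 (median 408.0).

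The tested genes outside the lists whose log2 CPM followed the mean of the 10 genes most closely over the 28 mice were *Lamc1* (r = 0.84), a laminin chain of basement membranes, *Clec14a* (0.83), an endothelial surface lectin, *Cd300lg* (0.83), *Aqp1* (0.82), a water channel, and *Arhgap31* (0.82). Spearman's rho was between 0.64 and 0.75 for these 5 genes. Without the 2 mice farthest out in the mean of the 10 genes, INT-787 replicate 8 and vehicle replicate 2, r fell to between 0.66 and 0.70. They are a description, since they were picked as the highest of all tested genes, and group means were left in for this ranking. With group means removed, *Cd300lg* (0.92) and *Aqp1* (0.91) came before *Lamc1* (0.85), *Clec14a* (0.80), and *Arhgap31* (0.78). *Lamc1* (log2 fold change -0.49, adjusted p = 0.0019) and *Clec14a* (-0.47, adjusted p = 0.025) fell with INT-787, whereas *Cd300lg* (0.03, adjusted p = 0.91) and *Aqp1* (0.008, adjusted p = 0.98) were close to vehicle.

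Other genes of sinusoidal endothelium gave few calls. Of 16 tested, INT-787 lowered 1, the mannose receptor *Mrc1* (54.7 ± 13.02 to 40.6 ± 5.16 CPM; log2 fold change -0.44, adjusted p = 0.011), which is also made by macrophages. OCA lowered 1, the Wnt enhancer *Rspo3* (-0.40, adjusted p = 0.043), which held in 7 of 11 other settings and in 15 of 28 fits without 1 mouse. The median log2 fold change of these 16 was -0.15 with INT-787 and -0.09 with OCA. With both drugs 11 of the 16 were below 0, and with INT-787 the uncalled values ran from *Thbd* (-0.42) to *Ehd3* (0.11). Of 20 genes shared by all endothelium, INT-787 lowered the junction cadherin *Cdh5* (-0.34, adjusted p = 0.031) and *Ramp2* (-0.44, adjusted p = 0.032), part of the adrenomedullin receptor, and raised the adhesion protein *Esam* (0.35, adjusted p = 0.03). These 3 calls held in 22 (*Cdh5*), 24 (*Ramp2*), and 24 (*Esam*) of 28 fits without 1 mouse. OCA changed 0 of these 20 by edgeR (4 at an unadjusted p under 0.05; 0 by DESeq2), and 17 of 20 had a fold change below 0 with a median of -0.19.

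Of 11 tested genes of continuous or activated endothelium, 8 fell with INT-787, with a median log2 fold change of -0.63. They included the vascular diaphragm protein *Plvap* (113.5 ± 17.4 to 73.1 ± 11.8 CPM; -0.63, adjusted p = 0.00013), the leukocyte adhesion molecules *Vcam1* (-0.75, adjusted p = 0.00021), *Selp* (-0.76, adjusted p = 0.001), and *Icam1*, and the basement membrane collagens *Col4a1* (-0.80, adjusted p = 0.0009) and *Col4a2*. *Edn1* and *Esm1* completed the 8, and the count was 5 to 8 over all settings, *Edn1* being held in only 7 of 28 fits without 1 mouse. Hepatic stellate cells also make these collagens and *Vcam1*, and of 10 stellate cell genes 2 fell with INT-787 (*Des* and *Lrat*). OCA lowered 1 of the 11, *Plvap* (85.9 ± 18.3 CPM; -0.40, adjusted p = 0.026, called in 25 of 28 fits without 1 mouse), and the count was 0 to 4 over all settings and 3 of these 11 by DESeq2. *Esm1* (-0.55, adjusted p = 0.066), *Selp* (-0.52, adjusted p = 0.052), and *Vwf* (-0.50, adjusted p = 0.12) were not called with OCA. In the direct comparison *Vcam1* (-0.63, adjusted p = 0.0064), *Col4a1* (-0.66, adjusted p = 0.02), and *Col4a2* (-0.71, adjusted p = 0.026) lay below OCA with INT-787, and *Plvap* was not called (-0.23, adjusted p = 0.28). Without OCA replicate 8 or without INT-787 replicate 9, 1 gene was called in place of these 3.

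**Figure D4:**
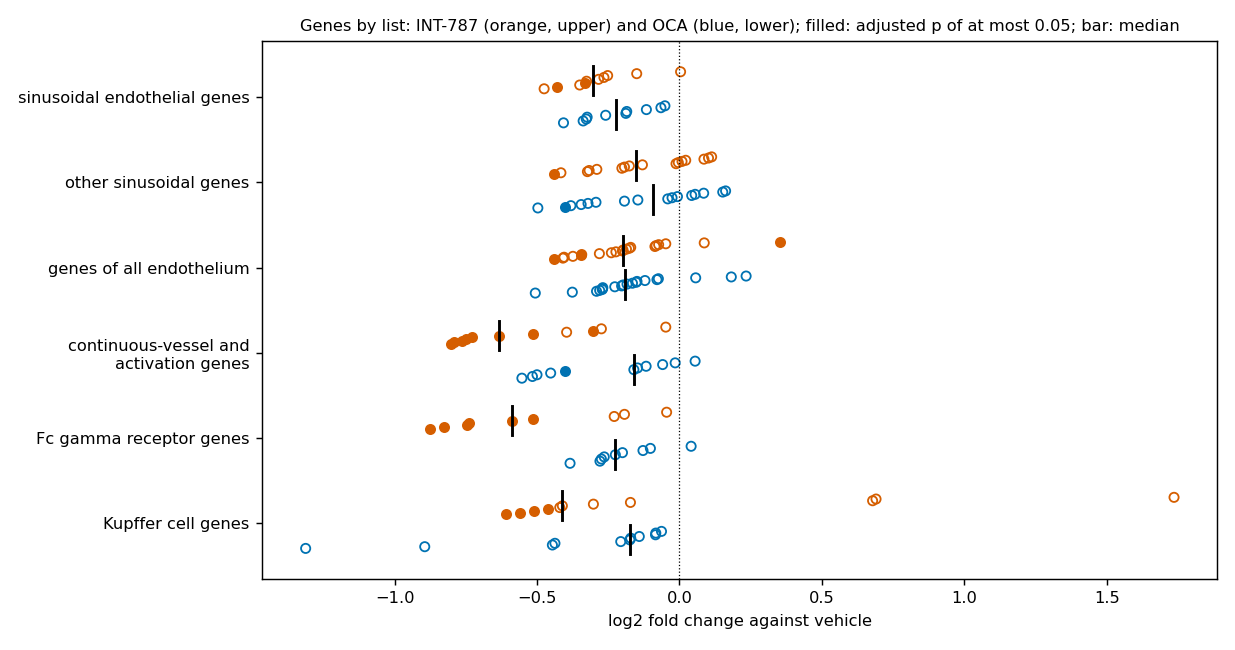
Log2 fold changes against vehicle (horizontal axis) of the tested genes of 6 lists, for INT-787 (orange) and OCA (blue), each point a gene, filled at an adjusted p of at most 0.05, with a bar at the list's median. The sinusoidal genes center on -0.30 with INT-787 and the continuous-vessel and activation genes on -0.63, of which 8 of 11 are filled.

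Around *Kdr*, co-receptors and ligands of the VEGF pathway were called, while *Kdr* itself was not. Of 15 tested genes of the pathway, INT-787 lowered 4 and raised 1. The neuropilins, which bind VEGF beside *Kdr*, fell with INT-787, *Nrp1* by 0.73 on the log2 scale (62.2 ± 13.8 to 37.8 ± 8.11 CPM, adjusted p = 0.00012) and *Nrp2* by 0.77 (22.02 ± 4.07 to 12.9 ± 2.63 CPM, adjusted p = 1.8e-05). *Nrp2* also fell with OCA (14.1 ± 1.80 CPM; -0.64, adjusted p = 0.00048). The ligand *Vegfa* rose with INT-787 (25.8 ± 3.55 to 33.9 ± 9.46 CPM; 0.40, adjusted p = 0.026), *Vegfb* fell with INT-787 (-0.39, adjusted p = 0.0097) and OCA (-0.57, adjusted p = 0.0005), and *Vegfd* fell with INT-787 (-1.18, adjusted p = 0.015). Of *Flt1*, the decoy receptor VEGFR1, the log2 fold change was -0.08 with INT-787 (adjusted p = 0.76).

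Around *Eng*, 2 of 18 tested genes of the BMP9 and ALK1 pathway rose with INT-787 and 0 fell. This is near the share of all tested genes, of which 1277 of 12580 rose. *Bmp6*, which sinusoidal endothelium secretes to control hepcidin, rose from 3.93 ± 1.02 to 6.13 ± 1.15 CPM (0.69, adjusted p = 0.00074), and the ligand *Bmp10* rose from 1.83 ± 0.65 to 3.12 ± 1.02 CPM (0.77, adjusted p = 0.046), the latter being called in 13 of 28 fits without 1 mouse. *Bmp10* was also higher with INT-787 than with OCA (1.03, adjusted p = 0.024). The ligand *Gdf2*, which encodes BMP9, was near vehicle (0.03, adjusted p = 0.90), the receptor *Acvrl1*, or ALK1, had -0.46 (adjusted p = 0.081), and the target *Id1* had 0.21 (adjusted p = 0.60). OCA changed 0 of the 18 genes by edgeR, with 2 at an unadjusted p under 0.05 and 0 by DESeq2.

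Around *Fcgr2b*, 6 of 9 tested Fc receptor and signalling genes fell with INT-787. With OCA the count was 0 by edgeR (3 at an unadjusted p under 0.05; 1 by DESeq2). The activating receptors *Fcgr1* (-0.87, adjusted p = 0.0013), *Fcgr3* (-0.74, adjusted p = 0.001), and *Fcgr4* (-0.74, adjusted p = 0.0051) and their shared chain *Fcer1g* (-0.83, adjusted p = 0.0046) fell, as did the kinase *Syk* and the phosphatase *Inpp5d*. These genes are made mainly by macrophages and other leukocytes. Of 11 Kupffer cell genes 4 fell with INT-787 (*C1qa*, *C1qb*, *C1qc*, and *Csf1r*), with summed levels of 749.4 to 1044.0 CPM with vehicle, 572.4 to 1270.0 CPM with OCA, and 492.0 to 810.8 CPM with INT-787. Of 8 lymphocyte genes 2 fell, among them the B cell gene *Cd79b* (-0.86, adjusted p = 0.0053), with sums of 19.3 to 33.7 CPM with vehicle, 15.3 to 27.6 CPM with OCA, and 14.6 to 32.7 CPM with INT-787. Of the other 7 Kupffer cell genes, *Clec4f* (-0.30), *Vsig4* (-0.17), *Timd4* (0.68), *Cd163* (0.69), and *Marco* (1.74) were not called with INT-787, nor were *Cd5l* (-0.42) and *Adgre1* (-0.41). *Marco* (2.63, adjusted p = 0.037) and *Cd163* (2.00, adjusted p = 0.025) were called between the drugs with INT-787 above OCA, and without INT-787 replicate 8 both calls were lost (1.62, adjusted p = 0.19, and 1.65, adjusted p = 0.073). No defining marker of either cell type was at 0 in every mouse, and the part of these cells in the fall of *Fcgr2b* was not tested.

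Around the clearance receptors, 1 of 12 tested scavenger receptor genes rose and 3 fell with INT-787. *Scarb1*, the HDL receptor that hepatocytes also make, rose with INT-787 (157.7 ± 15.5 to 374.4 ± 50.4 CPM; 1.25, adjusted p = 2e-12) and with OCA (336.2 ± 39.5 CPM; 1.09, adjusted p = 1.6e-10). The macrophage receptors *Msr1* (-0.72, adjusted p = 0.00041) and *Cd68* (-0.69, adjusted p = 0.00085) fell with INT-787, beside *Mrc1*. The fatty acid and lipoprotein receptor *Cd36* fell with OCA (-0.46, adjusted p = 0.007) and was not called with INT-787 (-0.24, adjusted p = 0.13). Of 16 genes of the endocytic machinery 1 fell with INT-787, the adaptor *Dab2* (-0.49, adjusted p = 0.031), and 0 changed with OCA by edgeR (2 at an unadjusted p under 0.05; 0 by DESeq2). Of 9 hyaluronan genes 2 fell with INT-787, *Cd44* and *Vcan*, and 1 rose, *Itih2* (0.32). With OCA 2 rose, *Itih2* (0.41, adjusted p = 0.00064) and *Itih3* (0.69, adjusted p = 5.3e-05), whose products bind hyaluronan in plasma. The receptor *Cd44* fell with INT-787 (-0.75, adjusted p = 7.8e-06) and was also lower than with OCA (-0.63, adjusted p = 0.00078), whereas *Lyve1*, which binds the same ligand, was not called between the drugs (-0.07, 95% interval -0.43 to 0.30, adjusted p = 0.90).

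Of the remaining cell types, 5 of 10 hepatocyte genes rose with INT-787 and 4 with OCA, among them *Alb* (0.45, adjusted p = 0.025, and 0.62, adjusted p = 0.0046). Hepatocyte genes are a large share of the counts, with sums from 76310 to 144500 CPM with vehicle, 121400 to 213700 CPM with OCA, and 111800 to 183400 CPM with INT-787. With upper-quartile in place of TMM scaling, the median of all genes with INT-787 was -0.06, 1597 of 2557 calls were lower in place of 1192 of 2469, and 5 of the 10 sinusoidal genes were called. Of 8 cholangiocyte genes, 2 fell with INT-787. Of 3 tested lymphatic genes *Prox1*, which hepatocytes also make, rose (0.31, adjusted p = 0.016), and *Ccl21a*, a defining lymphatic marker, was at 0 in every mouse. Of 5 red blood cell genes 0 were called with INT-787 by edgeR or DESeq2, also at an unadjusted p under 0.05, with a median log2 fold change of -0.50 with INT-787. Of 10 immediate early genes *Klf4* fell with INT-787 (-0.59, adjusted p = 0.016) and *Jun* with OCA (-0.55, adjusted p = 0.00035).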

How the data were processed

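Liver RNA of 28 mice was prepared with a stranded mRNA kit and sequenced, and the authors aligned the reads to GRCm38 with STAR 2.5.2a and Ensembl release 89. The authors deposited raw counts, that is reads per gene and mouse, without normalization. The counting program and its use of strand are not given in the sources used here. Of 21935 genes, 21858 matched GENCODE M21, and 0 columns belonged to other samples. The values were whole numbers with a different total in each mouse. Groups came from the sample titles.

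Genes were kept by filterByExpr, scaled by TMM, and tested with glmQLFit and glmQLFTest of edgeR 4.0.16 (R 4.3.3) in 1 model of the 3 groups. Standard errors were the log2 fold change divided by the square root of F. Alternatives were DESeq2 1.42.0, which the study used, limma-voom (limma 3.58.1), robust estimation, other size factors, filters, and thresholds, fits of 2 groups, a factor for the replicate number or for sets of neighbouring sample numbers, and each mouse left out. Named genes were the 10 sinusoidal genes, up to 4 called genes per list with the largest fold change at a mean of at least 1 CPM, their direct ligands and co-receptors, and the 5 most similar genes of at least 5 CPM. Further called genes were named so that counts could be followed. The 10 genes and the 17 gene lists, with 201 further genes, were chosen with earlier results of these data known. The intervals come from the edgeR fit, which models counts, and a gene with few counts in vehicle replicate 6 is less precise there.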

Additional observations from a re-analysis of the deposited data

Results flagged for a closer look

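Single mice far from the others of their group were looked for with Dixon's test in 30 sets of mice, 10 genes in 3 groups, and 4 were found. About 1 in 20 such sets is marked by chance. One of the 4 was a mouse, INT-787 replicate 8, that was known to be low for endothelial genes when the 10 genes were chosen, so its value is a description and is not to be read against that rate. Of the 4, 3 concerned *Oit3*. The highest vehicle mouse, replicate 2, was at 31.4 CPM, the highest OCA mouse, replicate 2, was at 26.8 CPM, and the lowest INT-787 mouse, replicate 8, was at 9.49 CPM. Both high mice were also the highest of their group for *Stab2*, and vehicle replicate 2 was highest for 6 of the 10 genes. INT-787 replicate 8 was lowest for all 10 genes, but for the other 9 its distance to the next mouse was within Dixon's limit.

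The fourth was *Fcgr2b* in INT-787 replicate 9, the highest mouse of its group at 51.8 CPM, where the other 8 mice were at 26.04 to 38.2 CPM. In this mouse 7 of the 10 genes were below the group mean, so *Fcgr2b* stood against the others there. Without this mouse *Fcgr2b* differed between INT-787 and OCA, as it also did without OCA replicate 3. With all mice kept, it also differed when the number set was a factor.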

How the results depend on the processing

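Over 28 fits that each left out 1 mouse, 1 to 5 genes were called with INT-787, 0 to 1 with OCA, and 0 to 1 between the drugs, in place of 2, 0, and 0. Of all tested genes, these fits called 16.85% to 21.68% with INT-787. The shares were 5.273% to 7.425% with OCA and 3.514% to 7.02% between the drugs. With INT-787 the number called of the 10 was 5 with upper-quartile scaling (20.3% of all tested genes) and with at least 10 counts required in every mouse (22.25%), 4 with DESeq2 (15.5%), with DESeq2 on 2 groups (16.1%), and with the replicate block (19.2%), 1 without a filter (14.2%), and 0 at an adjusted p of at most 0.01. With OCA 1 gene was called with the replicate block (6.9% of all) and 2 with the number set (6.42%), and between the drugs 1 with the number set (5.2%). An alternative chosen after seeing the data left out vehicle replicates 5 and 6 and INT-787 replicate 8. It gave 1 call with INT-787 (15.75% of all tested genes) and 1 with OCA (6.02%). The cause of these shifts was not tested. *Fcgr2b* was called with INT-787 in every setting at the threshold of 0.05.

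The labels do not say whether mice with the same replicate number belong together, and the main fit did not pair them. Mice with the same number had a median correlation of 0.077, over 0.1 in 11 of 27 pairs, against 0.004 for other pairs. For number sets the median was 0.105, over 0.1 in 13 of 25 pairs, against -0.007 for other pairs. Correlations this weak cannot decide whether the mice were handled in blocks.

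Fold changes near 0 changed sign without a call. For *Kdr* with INT-787 the value was -0.0024 with DESeq2 size factors, -0.0527 with upper-quartile scaling, -0.0239 with at least 10 counts, -0.0042 with DESeq2, -0.0032 with DESeq2 on 2 groups, -0.0313 with the replicate block, and -0.0154 with the number set. Between the drugs, *Stab2* was at -0.0269 with upper-quartile scaling, -0.0225 with at least 10 counts, -0.0314 with limma-voom, and -0.0279 with the replicate block. *Pecam1* was at -0.0268, -0.0218, and -0.0022 with upper-quartile scaling, at least 10 counts, and the replicate block. *Clec4g* was at 0.0284 with the number set. Without the 3 mice, *Clec4g* was at 0.03, *Eng* at 0.0339, *Oit3* at 0.0551, and *Gpr182* at 0.0169. Without 1 mouse the values ran from -0.0672 to 0.1203 for *Kdr* with INT-787 and from -0.1306 to 0.0251 for *Stab1* with OCA. Between the drugs they ran from -0.0795 to 0.1022 for *Stab2*, -0.0989 to 0.0384 for *Eng*, -0.1787 to 0.0277 for *Lyve1*, -0.0816 to 0.0387 for *Clec4g*, -0.0366 to 0.0692 for *Pecam1*, -0.0782 to 0.0673 for *Oit3*, and -0.1558 to 0.0169 for *Gpr182*. Depth limits mainly vehicle replicate 6.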
